A study of Mus musculus with 3 samples.

Results

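Platelet and coagulation genes were examined in blood stem and progenitor cells of mouse embryos that carry a DNMT3B7 transgene. The 8 genes were taken by name, namely Gp5, Gp1bb, Rasgrp2, Thpo, Mylk, F7, F10 and Pros1, and each matched a single gene among the 38205 gene identifiers listed. Of these, Gp5 (ENSMUSG00000047953), Gp1bb (ENSMUSG00000050761), Thpo (ENSMUSG00000022847), Mylk (ENSMUSG00000022836) and Pros1 (ENSMUSG00000022912) lie on chromosome 16. F7 (ENSMUSG00000031443) and F10 (ENSMUSG00000031444) lie on chromosome 8, and Rasgrp2 (ENSMUSG00000032946) lies on chromosome 19.

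RNA sequencing was done on LSK cells, the fraction negative for lineage markers and positive for Sca1 and c-Kit, from the fetal liver of C57Bl/6 embryos at E14.5. The groups were embryos homozygous for the DNMT3B7 transgene, embryos hemizygous for it and wild-type (WT) embryos, with 1 library per genotype. DNMT3B7 is a truncated form of DNMT3B, an enzyme that places methyl groups on cytosines of DNA, mostly at CG dinucleotides. The cells of 4 to 5 embryos were pooled for each library. The sources used here do not give the promoter that drives the transgene. The comparisons therefore have no replicate check, no p-value is given, and each comparison is between libraries rather than between genotypes.

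Platelets are shed by megakaryocytes, which arise from the stem and progenitor cells sorted here. A platelet first attaches to von Willebrand factor on a damaged vessel through the GPIb-IX-V receptor, to which Gp1bb and Gp5 contribute subunits. Calcium then acts through Rasgrp2 to switch on integrins, and myosin light chain kinase, encoded by Mylk, starts contraction. Thpo encodes thrombopoietin, the hormone of megakaryocyte growth, which is made mainly in the liver and acts on receptors of blood stem cells as well. F7 and F10 encode proteases of the clotting cascade and Pros1 encodes protein S, a cofactor that restrains it. All 3 proteins depend on vitamin K and reach the blood largely from hepatocytes, which neighbour the blood-forming cells in the fetal liver.

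Values are deposited FPKM (fragment counts corrected for gene length and depth) divided by 1 common number, and are called rescaled FPKM. The division brings the mean sum of a library to 1000292 but does not make the libraries equal. Deposited sums were 3.58e+09 in the homozygous, 4.32e+09 in the hemizygous and 4.83e+09 in the WT library. These sums and the fragment totals below leave out genes of small and ribosomal RNAs and the short joining and diversity segments of immune receptors. In the deposited tables many genes that all cells use stood at or near 0. Values were plausible only in the mitochondrial genome and in stretches that run from the starts of 10 chromosomes. On chromosome 16 the stretch held 507 of the 540 genes fitted, and so nearly the whole chromosome. The 1454 genes of these stretches, called in register, include all 8 members, and shares and ranks below were computed over them alone. Of the 1454, 826 lie on chromosome 16, so these shares and ranks rest largely on that chromosome. The genes that define the sort, Kit and Ly6a (which encodes Sca1), lie outside the stretches and so could not check the labels, nor could Dnmt3b. Steps in the low values implied about 2320000 fragments in the homozygous, 3020000 in the hemizygous and 3030000 in the WT library. Intervals below are exact 95% intervals that cover counting error only.

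The 8 genes differed widely in level. Rasgrp2 was listed far above the others, with a mean of 1259 rescaled FPKM over the 3 libraries. That was above 96.1% of the 972 in-register genes measured in a library. The gene is the last before the break on chromosome 19, so its level is uncertain. Gp5, F10 and Pros1 followed with means of 21.4, 19.0 and 17.2 rescaled FPKM, and their ranges over the libraries overlapped, so their order is not established. Gp1bb and Mylk came next with means of 4.45 and 3.70 rescaled FPKM, again with overlapping ranges. F7 and Thpo, with means of 0.251 and 0.119 rescaled FPKM, did not reach the minimum of 1 in any library.

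**Figure D1:**
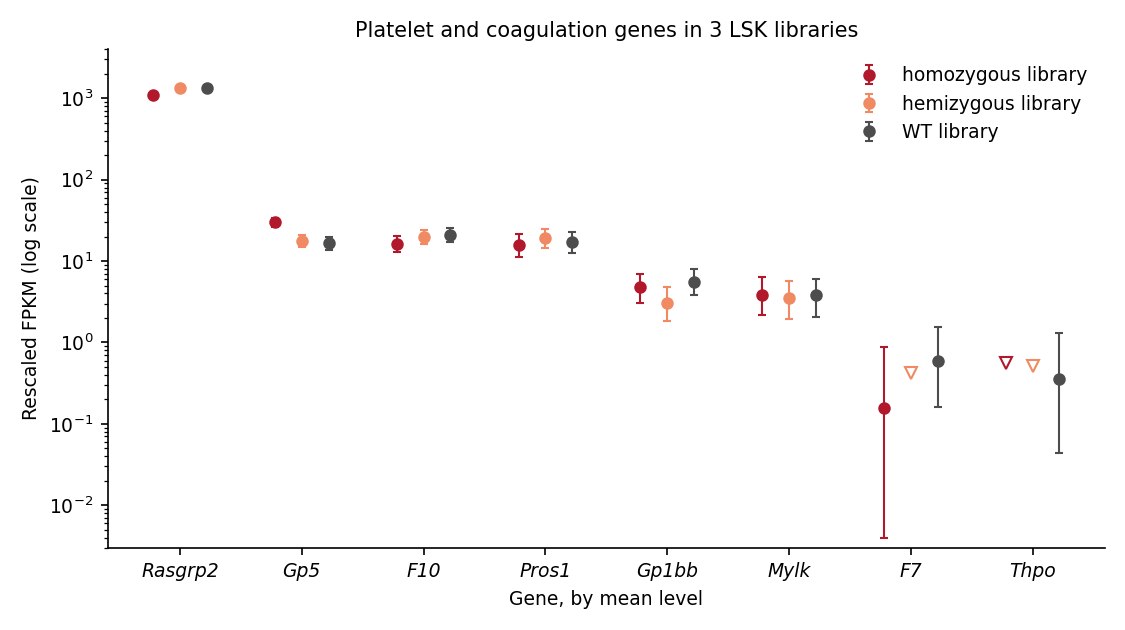
Rescaled FPKM (log scale) of the 8 genes in the homozygous, hemizygous and WT libraries, ordered by mean level, with exact 95% counting intervals. Open triangles stand for libraries in which a gene was listed at 0 and mark the level that 3 fragments would give. Rasgrp2 lies near 1000 in every library, Gp5 is highest in the homozygous library, and F7 and Thpo lie below 1.

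Gp5 encodes glycoprotein V, the subunit of the receptor that thrombin cleaves on platelets. Its level was 30.1 rescaled FPKM in the homozygous, 17.7 in the hemizygous and 16.5 in the WT library. The homozygous library stood apart, while the other 2 lay close together. These values rested on about 231, 150 and 133 fragments in that order of libraries, from a gene with a single annotated transcript that shares no stretch of 50 bases with another gene. The homozygous over WT ratio was 1.83 (interval 1.46 to 2.27) and the homozygous over hemizygous ratio was 1.70 (interval 1.38 to 2.11). The hemizygous over WT ratio was 1.07, and its interval of 0.839 to 1.36 includes 1. A different number of cells of a type and a different amount of RNA per cell cannot be told apart in these pooled samples.

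Gp1bb encodes the beta chain of glycoprotein Ib, which is needed for the receptor to reach the cell surface. Its level was 4.76 rescaled FPKM in the homozygous, 3.09 in the hemizygous and 5.50 in the WT library. The lowest value was thus in the hemizygous library, unlike Gp5. Counting was thin, at about 25, 18 and 31 fragments in that order of libraries. The homozygous over WT ratio was 0.866 (interval 0.478 to 1.48). Its log2 ratio of -0.17 turned to 0.30 under the equal-sum scaling and 0.09 under estimated fragments. With the mitochondrial genes left out of the sum it was -0.11, and under the median ratio over genes -0.14. The hemizygous over WT ratio was 0.561 (interval 0.289 to 1.01). With the longest annotated transcript in place of the median length, more fragments were implied and the interval of the hemizygous over WT ratio, 0.329 to 0.946, no longer held 1. Gp1bb shared 90.6% of its 50-base stretches with other genes, chiefly Sept5, which it overlaps on the same strand over 1902 bases. Sept5 itself, a septin of the cytoskeleton, stood at 1.44 rescaled FPKM in the homozygous, 1.61 in the hemizygous and 1.47 in the WT library, so the split of fragments between the pair is uncertain.

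The sequences just upstream of both receptor genes are shown because Gp5 had the largest ratio of the 8 genes and Gp1bb encodes its partner. They are the 250 bases before the start of each gene, 5′ to 3′ on the gene's strand, from RefSeq on GRCm38.p6. Capitals mark GATA on either strand (TATC is its reverse complement), the core letters bound by GATA factors of the megakaryocyte and red cell lineages.
Gp5 chr16:30310782-30311031 (minus strand): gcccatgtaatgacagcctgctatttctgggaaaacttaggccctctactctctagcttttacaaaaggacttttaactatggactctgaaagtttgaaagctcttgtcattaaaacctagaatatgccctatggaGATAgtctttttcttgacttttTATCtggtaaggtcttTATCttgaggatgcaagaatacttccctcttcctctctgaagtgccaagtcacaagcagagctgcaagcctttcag
Gp1bb chr16:18622404-18622653 (minus strand): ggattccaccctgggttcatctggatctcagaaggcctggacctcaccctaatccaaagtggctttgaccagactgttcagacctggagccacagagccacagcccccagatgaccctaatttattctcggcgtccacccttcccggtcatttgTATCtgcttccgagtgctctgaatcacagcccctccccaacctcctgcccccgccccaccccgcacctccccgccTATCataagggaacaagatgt

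The Gp5 window held 3 GATA matches, which begin 114, 92 and 76 bases before the start, and 2 of them belonged to the longer motif AGATAA, with both strands searched for each motif. At least 3 GATA matches occurred in 9.62% of 32851 mouse promoter windows of the same length, and at least 2 AGATAA matches in 0.938%. The Gp1bb window held 2 GATA matches, 96 and 21 bases before the start, and no AGATAA, and 24.2% of windows held at least 2 GATA. The Gp5 window contained 0 CG dinucleotides and was 40.8% G and C, against medians of 6 CG and 52.4% over all windows, whereas the Gp1bb window contained 7 CG. These letter matches describe the windows and do not show binding or methylation, neither of which was measured.

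Rasgrp2 encodes a guanine nucleotide exchange factor for Rap1 that links calcium to integrin activation. Its level was 1092 rescaled FPKM in the homozygous, 1346 in the hemizygous and 1339 in the WT library. The homozygous library was the lowest, and the other 2 differed little. The homozygous over WT ratio was 0.816 (interval 0.765 to 0.869) and the homozygous over hemizygous ratio was 0.812 (interval 0.762 to 0.864), while the hemizygous over WT ratio was 1.00 (interval 0.948 to 1.07). The intervals are narrow because the listed level is high, yet on the log2 scale the homozygous versus WT difference of -0.29 depended on scaling. It turned to 0.02 when libraries were scaled to estimated fragments and to 0.27 when scaled to the same sum. With the mitochondrial genes left out of that sum it stayed at -0.22, and at -0.25 when scaled by the median ratio over genes. The homozygous versus hemizygous difference of -0.30 turned to 0.05 under the same sum and stayed at -0.28 without the mitochondrial genes. Rasgrp2 has 24 annotated transcripts of very different length, so that its fragments came to 1712, 2335 and 2198 with the median length and to 36154, 49300 and 46409 with the longest, each in the order homozygous, hemizygous and WT. It is also the last gene before the break on chromosome 19, and its own high level helped to place that break. Part of the locus may therefore be miscounted, which was not tested. Gm14965, a transcript beyond the break, and so not in register, that overlaps Rasgrp2 on the opposite strand over 265 bases, was listed at 21.8 rescaled FPKM in the homozygous, 24.9 in the hemizygous and 12.3 in the WT library. Whether counting used strand is not given, so reads of the 2 genes cannot be told apart there.

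The window before the first Rasgrp2 start is shown because this gene had the highest listed level of the 8 and its upstream sequence is the richest in CG. Capitals mark CG dinucleotides, the sites that DNMT3B methylates.
Rasgrp2 chr19:6399625-6399874 (plus strand): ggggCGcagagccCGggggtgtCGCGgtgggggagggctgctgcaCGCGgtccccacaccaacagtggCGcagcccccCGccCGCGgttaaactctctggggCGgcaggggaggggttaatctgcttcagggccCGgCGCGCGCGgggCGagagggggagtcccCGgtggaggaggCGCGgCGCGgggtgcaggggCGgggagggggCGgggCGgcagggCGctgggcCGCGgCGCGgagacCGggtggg

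This window held 31 CG dinucleotides and no GATA, and 5.19% of all windows held as many CG or more. A window before a second annotated start of Rasgrp2 held 21 CG. The windows of the other genes held 15 CG for Pros1, 10 and 5 for the 2 starts of Thpo, 4 each for F7 and F10 and 3 for Mylk. The fewest CG were thus found upstream of Gp5 and the most upstream of Rasgrp2. Methylation was not measured, and a link between CG number and level was not tested.

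Mylk encodes the kinase that phosphorylates myosin light chain in smooth muscle and in non-muscle cells. Its level was 3.80 rescaled FPKM in the homozygous, 3.53 in the hemizygous and 3.79 in the WT library. The 3 values were nearly equal, and the homozygous over WT ratio was 1.00 (interval 0.477 to 2.30). About 15 fragments per library stood behind them with the median transcript length, so a difference of up to about the size of that interval was not detectable. The longest transcript implied about 111 fragments in the homozygous, 115 in the hemizygous and 116 in the WT library. The interval was then 0.765 to 1.31. Myh11, a myosin of smooth muscle, was at 0.603 rescaled FPKM in the homozygous, 0.436 in the hemizygous and 0.461 in the WT library, and the other 9 genes of an 11-gene list of smooth muscle and stromal markers were not in register.

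**Figure D2:**
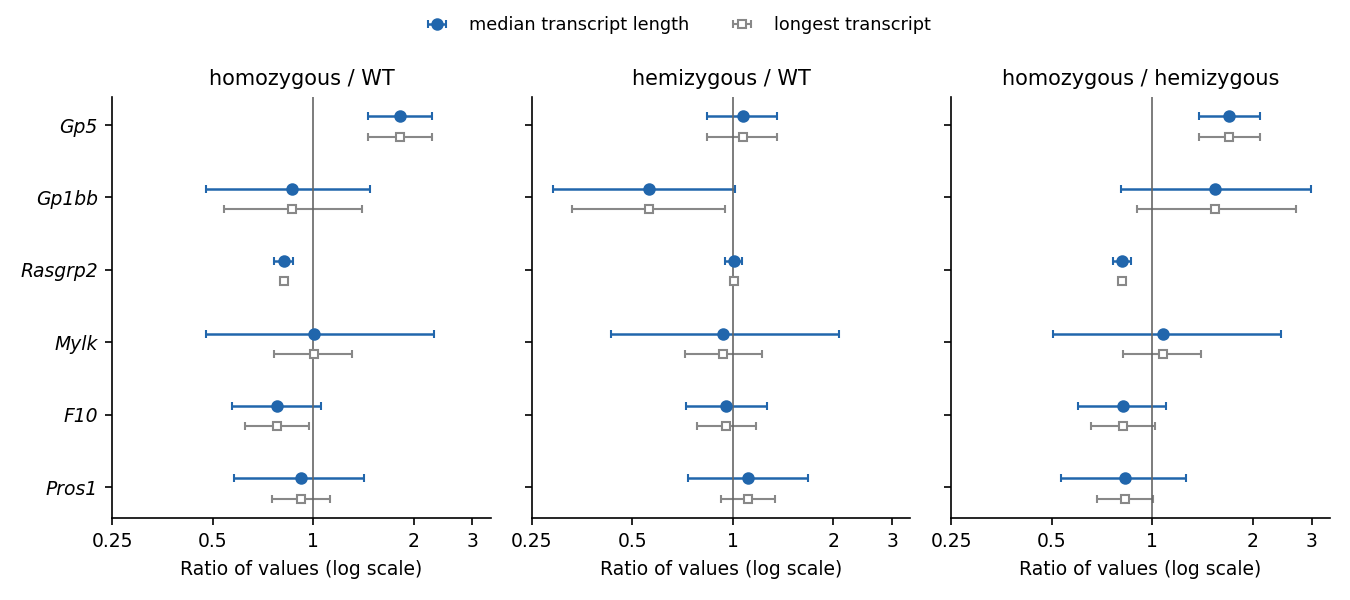
Ratios between libraries (log scale) of the 6 genes measured, with exact 95% counting intervals computed from the median transcript length (filled circles) and from the longest transcript (open squares). Gp5 lies above 1 in both comparisons of the homozygous library, Rasgrp2 lies below 1 in the same comparisons, and the intervals of Mylk and Pros1 include 1 throughout with the median length.

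The genes of the secreted proteins were measured at very different depths. Thpo was listed at 0 in both transgenic libraries and at 0.357 rescaled FPKM in the WT library, which stood for about 2 fragments. A count of 0 allows a level of up to 0.562 in the homozygous library and 0.508 in the hemizygous library, taking 3 fragments as the limit, so no difference was detectable. F7 was at 0.156 rescaled FPKM in the homozygous, listed at 0 in the hemizygous and at 0.597 in the WT library, or about 1, 0 and 4 fragments. The homozygous over WT ratio of F7, 0.262, had an interval of 0.00531 to 2.64, which is too wide to place the libraries in an order. The limit for F7 in the hemizygous library was 0.425.

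F10, which lies next to F7 in the genome, was far more abundant. Its level was 16.2 rescaled FPKM in the homozygous, 19.9 in the hemizygous and 20.8 in the WT library. The homozygous library was the lowest, with a homozygous over WT ratio of 0.780 and an interval of 0.573 to 1.05 that includes 1. With the longest transcript the interval was 0.625 to 0.974. On the log2 scale the difference of -0.34 turned to 0.19 when libraries were scaled to the same sum. That of homozygous from hemizygous, -0.28, turned to 0.06. With the mitochondrial genes left out of the sum these differences stayed at -0.27 and -0.26. The hemizygous over WT ratio was 0.956 (interval 0.722 to 1.26).

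Pros1 stood at 15.7 rescaled FPKM in the homozygous, 19.0 in the hemizygous and 17.1 in the WT library. As deposited the hemizygous library was the highest and the homozygous library the lowest. Under the equal-sum scaling the log2 differences of homozygous from WT (-0.12) and from hemizygous (-0.26) turned to 0.41 and 0.08. Under estimated fragments the first turned to 0.18. With the mitochondrial genes left out of the sum they were -0.05 and -0.24. No ratio had an interval that excluded 1, at 0.919 (0.581 to 1.42) for homozygous over WT, 1.11 (0.736 to 1.68) for hemizygous over WT and 0.827 (0.531 to 1.26) for homozygous over hemizygous. Proz, which encodes another vitamin K-dependent plasma protein and is the neighbour of F7 and F10, was at 10.7 rescaled FPKM in the homozygous, 11.4 in the hemizygous and 11.5 in the WT library. F10, Pros1 and Proz were thus readily detected in every library, whereas F7 from the same gene cluster was near its limit.

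Markers of hepatocytes were set beside these genes because the clotting proteins are made mainly there. Of a 19-gene list, 6 were in register, and their summed level was 5.62 rescaled FPKM in the homozygous, 4.58 in the hemizygous and 4.53 in the WT library. Ahsg, which encodes the plasma protein fetuin-A, made up most of it at 3.67 rescaled FPKM in the homozygous, 3.49 in the hemizygous and 3.70 in the WT library. Fetub and Hrg, also plasma proteins of the liver, were listed at 0 in every library. F10, Pros1 and Proz were each above the sum of these 6 markers in every library. The rest of the list, among them Alb, Afp, Apoa1 and Ttr, was not in register, so the sum covers only a part of it. The cells from which these transcripts came were not tested.

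**Figure D3:**
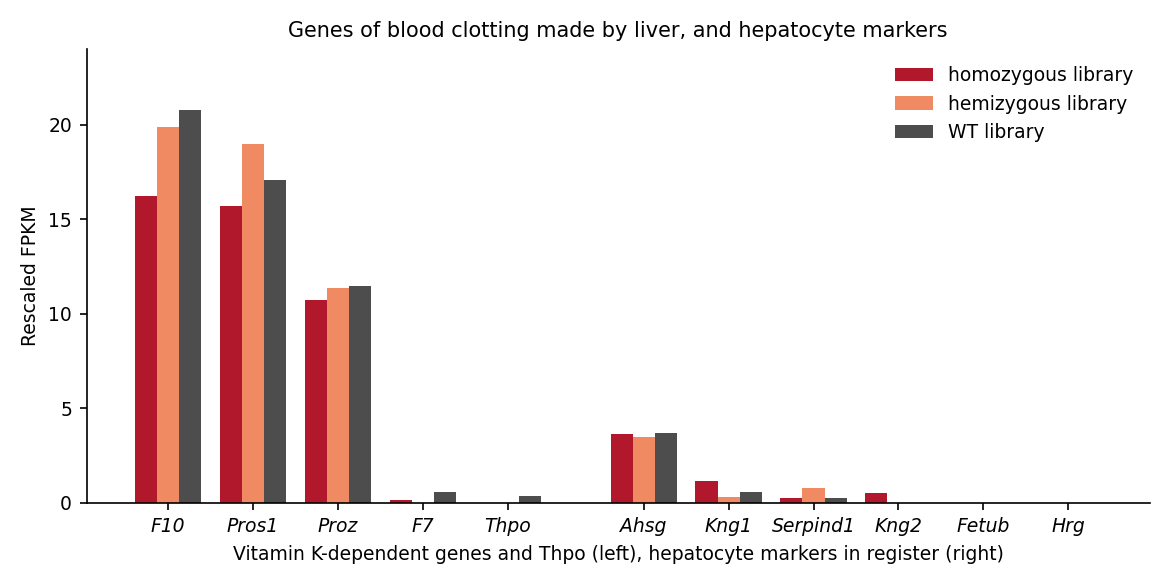
Rescaled FPKM of the vitamin K-dependent genes and Thpo (left) and of the 6 in-register hepatocyte markers (right) in the homozygous, hemizygous and WT libraries. F10, Pros1 and Proz lie between 10.7 and 20.8 in every library, Ahsg lies between 3.49 and 3.70, and Fetub and Hrg are listed at 0.

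The comparison of homozygous with WT asked which of the genes differed where both transgenic alleles were present. Differences across genes are log2 ratios of value + 1, and a gene counted as measured with an OK status in both libraries and a value of 1 or more in either. Of the 8 genes, 6 were measured and none differed 2-fold, a size that 4.4% of the 955 in-register genes measured reached in either direction. Gp5 was the only one past 1.5-fold, with a log2 ratio of 0.83, whereas 5.13% of all genes were past 1.5-fold on the higher side and 7.33% on the lower side. Gp5 ranked 14 from the top of the 798 genes that reached a value of 5 in either library, while Pros1, Gp1bb, Rasgrp2 and F10 ranked 510, 570, 675 and 697. Counting intervals excluded 1 for 2 of the 6, Gp5 and Rasgrp2, a share near the 31.9% of all genes for which they did. The median log2 ratio was -0.14 over the 6 genes and -0.04 over all genes.

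The comparison of hemizygous with WT asked the same of a single transgenic allele. Again 6 genes were measured and none differed 2-fold, against 2.73% of 954 genes. Gp1bb was past 1.5-fold on the lower side, with a log2 ratio of -0.67, as were 3.14% of all genes, and no member was among the 4.82% of all genes past it on the higher side. The log2 ratio of Gp1bb was -0.50 under the equal-sum scaling and -0.38 with a pseudocount of 5, both short of 1.5-fold. Its rank from the top was 793 of 803, and those of Pros1, Gp5, Rasgrp2 and F10 were 241, 294, 417 and 521. No interval of the 6 excluded 1, against 30.7% of all genes, and the median log2 ratio was -0.03 over the 6 genes and 0.02 over all genes.

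The comparison of homozygous with hemizygous, which shares each library with 1 of the others, also placed 6 genes among the 962 measured. None differed 2-fold, against 4.57% of all genes, and Gp5 was past 1.5-fold on the higher side with a log2 ratio of 0.73, as were 3.95% of all genes, while 7.48% were past it on the lower side. Gp5 ranked 11 from the top of the 802 genes that reached a value of 5. Gp1bb, below that value in both libraries, had a log2 ratio of 0.50 and a plain ratio whose interval, 0.806 to 2.99, includes 1. Counting intervals excluded 1 for Gp5 and Rasgrp2, against 29% of all genes.

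**Figure D4:**
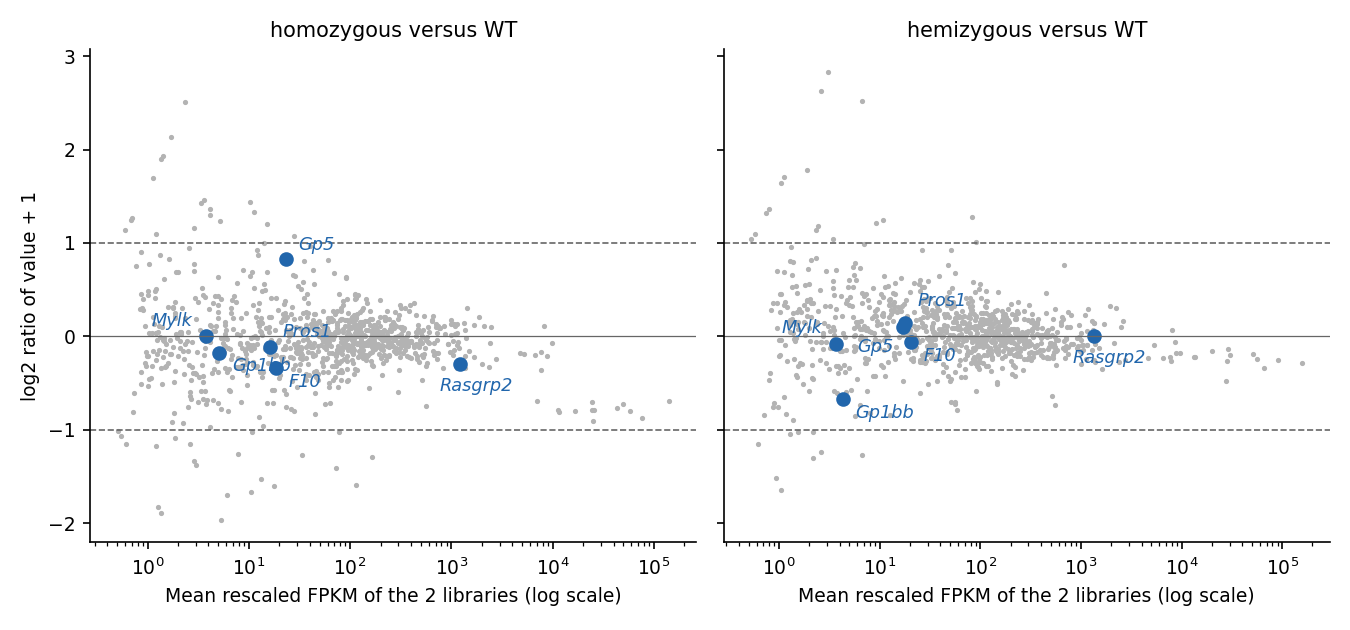
The log2 ratio of value + 1 against the mean rescaled FPKM (log scale) of the 2 libraries compared, for all in-register genes measured (grey) and the 6 measured platelet and coagulation genes (blue), with dashed lines at 2-fold. Gp5 lies at 0.83 in the homozygous comparison and at 0.10 in the hemizygous one, and Gp1bb lies at -0.67 in the hemizygous comparison.

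The scale of the libraries moved these ratios together. Scaling to the same sum of in-register values moved the median of all genes to 0.49 for homozygous versus WT, and scaling to estimated fragments moved it to 0.25, whereas leaving the mitochondrial genes out of the sum gave 0.02. Genes past 2-fold numbered 20 higher and 22 lower as deposited, 61 higher and 9 lower under the equal sum, and 34 higher and 13 lower under estimated fragments. For hemizygous versus WT the same counts were 17 higher and 9 lower, 21 and 6, and 20 and 6, and for homozygous versus hemizygous they were 16 higher and 28 lower, 33 and 15, and 28 and 16. Gp5 reached 1.37 under the equal sum and 1.13 under estimated fragments, and so passed 2-fold there. A scaling multiplies all values of a library alike, so subtracting the median of all genes removes most of it by construction. It does not remove all of it for low genes, since 1 is added to each value. For homozygous versus WT, Mylk less that median went from 0.05 as deposited to -0.04 under the equal sum. Less that median, the homozygous versus WT log2 ratio was 0.88 for Gp5, -0.25 for Rasgrp2 and -0.29 for F10 with the values as deposited.

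**Figure D5:**
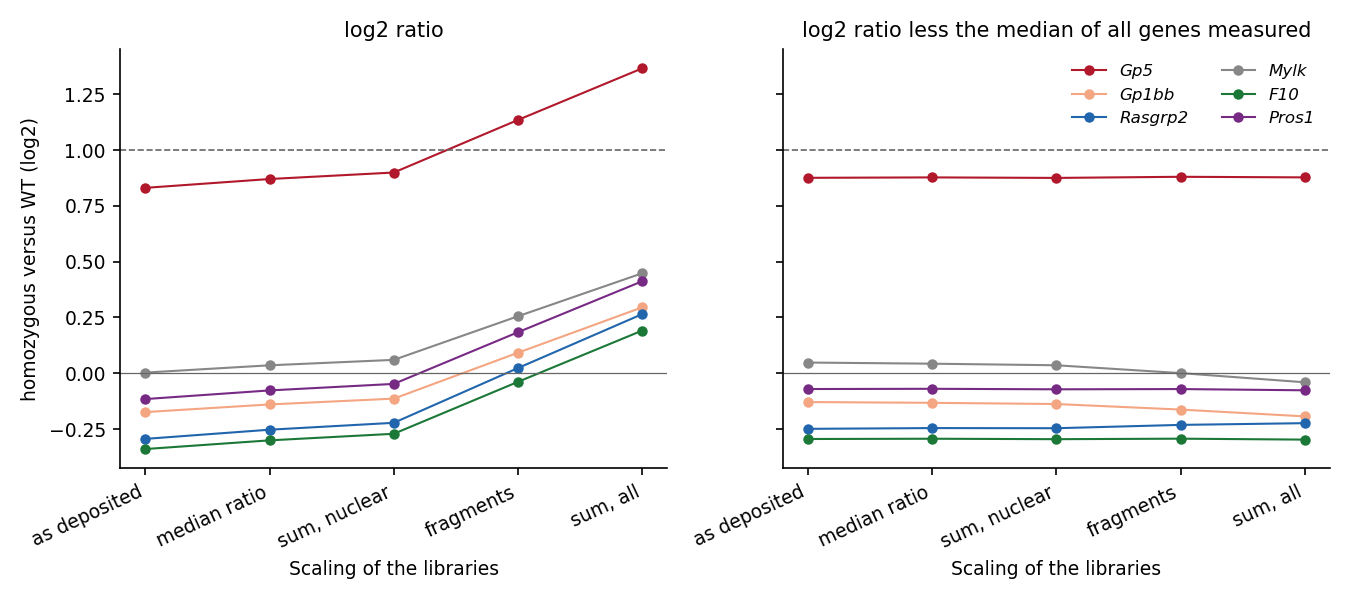
The homozygous versus WT log2 ratio of the 6 measured genes under 5 scalings of the libraries, as such (left) and less the median of all in-register genes measured (right), with a dashed line at 2-fold. On the left all genes shift upwards under the fragment and equal-sum scalings, and Gp5 passes 1. On the right most of the shift is removed by construction, and Gp5 lies at 0.88.

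The genes whose pattern lay nearest to that of Gp5 were found by the Euclidean distance between pairs of log2 ratios, hemizygous and homozygous versus WT, over 809 in-register genes that reached a value of 5. The nearest was Gas6 on chromosome 8, which encodes a vitamin K-dependent relative of protein S that binds the TAM receptor kinases. Gas6 stood at 11.1 rescaled FPKM in the homozygous, 6.84 in the hemizygous and 6.41 in the WT library, with a homozygous versus WT log2 ratio of 0.71 and an interval of the plain ratio of 1.25 to 2.42. Next came Cdc42bpg on chromosome 19, which encodes a kinase that binds Cdc42, at 53.4, 34.1 and 32.3 rescaled FPKM in the homozygous, hemizygous and WT libraries. The third was 5330426P16Rik on chromosome 16, at 16.3, 9.58 and 8.10 in the same order. All 3 are nearest by construction, and the likeness rests on 3 libraries.

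The wider pathways of platelet formation and clotting were read from 12 lists with 186 genes in all, of which 22 were in register. No gene of these lists differed 2-fold in any comparison, among 17 measured for homozygous versus WT, 16 for hemizygous versus WT and 17 for homozygous versus hemizygous, where 4.4%, 2.73% and 4.57% of all in-register genes did. Past 1.5-fold for homozygous versus WT were 2 of the 17, Gp5 and Gas6, both higher, beside 5.13% of all genes higher and 7.33% lower. For hemizygous versus WT 1 of the 16 was past 1.5-fold, Gp1bb on the lower side, beside 3.14% of all genes. For homozygous versus hemizygous 3 of the 17 were, Gp5, Gas6 and Kng1 on the higher side, beside 3.95% of all genes. The median log2 ratio of the listed genes was -0.02, 0.05 and -0.07 in the 3 comparisons.

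Among transcription factors of megakaryocytes, 3 of 19 were in register and measured, and none passed 1.5-fold. Runx1, a master regulator of definitive blood formation, was at 132 rescaled FPKM in the homozygous, 153 in the hemizygous and 152 in the WT library. Gabpa, an ETS factor, was at 198, 226 and 178 in that order, and Bach1, a repressor of heme-regulated genes, was at 112, 114 and 100.1. Rasa3, which opposes Rasgrp2 by inactivating Rap1, was at 311 rescaled FPKM in the homozygous, 364 in the hemizygous and 330.0 in the WT library. App, whose product is stored in platelet granules, was at 17.8, 14.0 and 15.2 in that order. Of the 4 measured genes of myosin and the platelet cytoskeleton, Rock1 and Cfl1 were at 130.0 and 9671 rescaled FPKM in the homozygous, 137 and 9022 in the hemizygous and 127 and 10185 in the WT library. The lists of platelet receptors and adhesion, of fibrinolysis and of the vitamin K cycle had no gene in register.

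Of the coagulation factors, 4 of 17 were in register, and Kng1, which encodes kininogen, was at 1.15 rescaled FPKM in the homozygous, 0.328 in the hemizygous and 0.570 in the WT library. The homozygous over WT interval of Kng1, 0.561 to 9.50, includes 1. Kng2 was at 0.533 in the homozygous library and listed at 0 in the hemizygous and WT libraries. Serpind1, which encodes the thrombin inhibitor heparin cofactor II, was at 0.280 in the homozygous, 0.759 in the hemizygous and 0.268 in the WT library. None of these low values could order the libraries at this depth.

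Markers of other cell types shifted between the libraries in both directions. Of 14 markers of endothelium and vessel wall, 5 were in register and none was at 0 throughout, with a summed level of 103 rescaled FPKM in the homozygous, 71.5 in the hemizygous and 56.8 in the WT library. The collagens Col4a1 and Col4a2 made up nearly all of it, Col4a1 at 45.2, 31.7 and 25.5 and Col4a2 at 54.1, 36.4 and 27.1 in that order. Cldn5, which encodes a tight junction protein of endothelium, was at 2.14, 1.93 and 1.63. Adamts1, a secreted protease, was at 0.718, 0.399 and 1.36 and Jam2, a junctional adhesion molecule, at 1.30, 1.08 and 1.23. Their homozygous over WT intervals were 0.465 to 3.82 for Cldn5, 0.161 to 1.51 for Adamts1 and 0.313 to 3.50 for Jam2. Each includes 1, so these genes do not order the libraries. For both collagens, as for Gp5, the hemizygous over WT interval includes 1, at 0.826 to 1.85 for Col4a1 and, only just, 0.997 to 1.81 for Col4a2. Their hemizygous versus WT log2 ratios, 0.30 and 0.41, were larger than that of Gp5, 0.10. The summed levels of the blood lineages were lowest in the homozygous library as deposited. That of 3 lymphoid markers was 192, 400.4 and 517 in the same order, that of 4 erythroid markers 3285, 4012 and 3987, and that of 2 myeloid markers 35.8, 39.7 and 45.6. Among the erythroid markers Car1 went the other way, at 76.7, 65.0 and 64.7. Each other scaling multiplies a library by a single factor and raises the homozygous library relative to the other 2. Under the equal sum the factors were 1.25 for the homozygous, 0.978 for the hemizygous and 0.849 for the WT library. With these factors the lymphoid sum stays lowest in the homozygous library, whereas the erythroid and myeloid sums do not. The part of these shifts in the levels of the platelet and coagulation genes was not tested.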

How the data were processed

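The authors deposited gene tables of FPKM with an estimation status, per the file headers. Per the submitters' processing notes, the tools were TopHat2, Bowtie2 and Cufflinks and the build was mm9, all without versions. The sources used here do not give the annotation, the strand setting or the fragment length. Samples were grouped by their genotype label.

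The deposited FPKM were divided by 1 common number, and the highest row per gene identifier was kept. Gene types, transcript lengths, chromosomes and overlaps came from GENCODE M21 on GRCm38, in which 36463 (95.4%) of 38205 identifiers were found. No gene coordinates are given, since that build differs from the files'. For each chromosome the most likely break was fitted in the frequency of protein-coding genes whose mean FPKM, as deposited, reached 200000 (gain of at least 5 log-likelihood units, at least 20% high before the break), without gene families and constitutive genes. The genes preceding a break were kept, with 13 mitochondrial ones. The rule was set with the values in view, and the cause of the pattern was not tested. Of 23 constitutive genes before the breaks 22 were high, against 14 of 343 elsewhere.

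The step of 1 fragment was read from low values of single-transcript genes of 1000 to 10000 bases, which were whole multiples within 0.05 for 70.8% of 895 values (homozygous), 68.2% of 969 (hemizygous) and 70.4% of 877 (WT), against 10% by chance. Fragments used the median transcript length less an assumed fragment length of 200 bases. Totals of 2320000 (homozygous), 3020000 (hemizygous) and 3030000 (WT) became 4820000, 5950000 and 5680000 with the longest transcript, so counting intervals are approximate. Intervals of ratios are exact conditional binomial (Clopper-Pearson) 95% intervals and those of levels are exact Poisson intervals. Where 0 was listed, 3 fragments set the limit.

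Differences are log2 ratios of value + 1, a scale that understates changes of low genes, and were called at 2-fold or 1.5-fold. With 1 library each, genotypes could not be tested, and shares over all in-register genes stand in for it. Alternatives were 4 other scalings, pseudocounts of 0.1 and 5, no minimum or a minimum of 5, summed rows, and the longest transcript. The scaling to estimated fragments and a background from chromosome 16 alone were chosen after seeing the data. Named genes are the 8 members, in-register genes of the pathway and marker lists, genes that overlap or share sequence with members, and the 3 genes nearest in pattern to the member with the largest homozygous versus WT ratio. The members and lists were chosen with earlier results of these data known.

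Promoter sequences came from RefSeq on GRCm38.p6, in which all 8 members matched. Analyses used Python 3.11.15, numpy 2.4.6, pandas 2.3.3, scipy 1.17.1 and matplotlib 3.10.9.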

Additional observations from a re-analysis of the deposited data

How the results depend on the processing

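No paired analysis was possible because each genotype had 1 library. Of 158 log2 ratios of members under the alternatives, 144 kept their sign, 14 turned it and 3 passed 2-fold, all 3 of them Gp5 under another scaling of the libraries. Scaling to the same sum of in-register values gave 1.37 for Gp5 in homozygous versus WT, 1 member past 2-fold there and 1 in homozygous versus hemizygous, and 2 listed pathway genes past 2-fold in homozygous versus WT and 1 in homozygous versus hemizygous. Scaling to estimated fragments gave 1 member and 1 listed gene past 2-fold in homozygous versus WT. By construction these scalings multiply all values of a library alike. A pseudocount of 0.1 gave 1 listed gene past 2-fold in homozygous versus hemizygous. With the longest transcript, 1 member (Gp1bb) had a hemizygous versus WT interval that excluded 1, since more fragments are then assumed. For homozygous versus WT the members with such an interval rose from 2 to 3, with F10 added. Over chromosome 16 alone, 5.56%, 2.77% and 5.09% of genes passed 2-fold in homozygous versus WT, hemizygous versus WT and homozygous versus hemizygous. Depth limits F7 and Thpo, which rest on 4 fragments or fewer per library, and Gp1bb and Mylk, at 15 to 31 fragments with the median transcript length. With the longest transcript Mylk came to 111 to 116 fragments. With 1 library per genotype, differences between embryo pools cannot be told apart from genotype.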
